A study of Mus musculus with 6 samples.

Results

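The S100 proteins are small calcium-binding proteins, and the genes described here are the 10 members *S100a1*, *S100a4*, *S100a6*, *S100a8*, *S100a9*, *S100a10*, *S100a11*, *S100a13*, *S100a16* and *S100b*, chosen by gene name among the 48733 genes named in the deposited tables. Rows of the same name were summed, which found 8 of the 10 under their own names. *S100a4* and *S100a13* had no row of their own name in any library, and their signal was read by position from the features that lie over them. RNA of the Collaborative Cross strain CC016/GeniUnc was sequenced in 3 libraries labelled bone (cortical bone of the femur with the marrow spun out) and 3 labelled osteoblasts. The osteoblasts were made in culture from the adherent stromal cells of the marrow, kept for 8 days in medium with dexamethasone (10 nM), beta-glycerophosphate (10 mM) and ascorbic acid (50 µg/ml). No mutation separates the labels. The culture medium with its additions was given for the osteoblasts only, so the label, the culture and the medium cannot be told apart. The sources used here give neither the age nor the sex of the mice. The femora came from 3 mice, but the labels tie no library to a mouse. Values are FPKM, the fragments per kilobase of transcript scaled to the aligned fragments of the library. The division by length is meant to let genes be compared. For some features here, the deposited coverage, the mean depth over the bases of a feature, gave another order between genes. Where 3 values are given for a label, they stand in the order of the replicate numbers, which carries no meaning of its own.

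Most S100 proteins work as dimers that open a binding face for other proteins when calcium fills their EF-hand loops. They act inside cells on the cytoskeleton, on annexins and on membranes, and some are released and bind receptors such as RAGE and Toll-like receptor 4. In marrow and bone they are known above all for *S100a8* and *S100a9*, whose products form calprotectin, the abundant cytosolic protein of neutrophils that withholds zinc and manganese from microbes.

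The libraries do not sort by their labels in the genes of blood cells, and this bears on each result that follows. *Sost*, a defining gene of osteocytes in bone, likewise measured 18.8 FPKM in bone replicate 3, 22.7 and 15.8 FPKM in osteoblasts replicates 2 and 3, and did not pass 0.198 FPKM elsewhere. The other osteocyte genes did not share this order: *Dmp1* measured 24.2 FPKM in bone replicate 3, 22.5 and 22.9 FPKM in osteoblasts replicates 2 and 3, and 50.0 to 127 FPKM elsewhere. The genes of blood cells and *Sost* thus go against the labels of some libraries, while *Dmp1* had its 3 lowest values where *Sost* was high. Whether labels were exchanged was not tested, no library was moved, and each difference between osteoblasts and bone given here is one between the labels as deposited. *Hbb-bt*, a beta globin gene of red cells, was above 1000 FPKM in the libraries labelled bone replicate 3, osteoblasts replicate 2 and osteoblasts replicate 3 (34268 to 48650 FPKM) and at most 7.05 FPKM in the other 3. In the text, "*Hbb-bt*-high" stands for those 3 libraries, which is a description of their values and not a group of the study. Of the lists of marker genes, the 11 neutrophil genes in the tables summed to 7507 to 8442 FPKM in the *Hbb-bt*-high libraries and to 6.09 to 71.9 FPKM in the others, and 11 of the 11 had their 3 highest values there. The 6 monocyte and macrophage genes had the opposite order, with sums of 1584 to 1940 FPKM in the *Hbb-bt*-high libraries and 5091 to 9367 FPKM in the others. The 6 osteoblast genes, *Col1a1* and *Alpl* among them, were present in each library, with sums of 3677 to 4640 FPKM in the *Hbb-bt*-high libraries and 4875 to 8224 FPKM in the others. Of these 6 genes, 2 had their 3 lowest values in the *Hbb-bt*-high libraries, *Alpl* and *Ibsp* (43.1 to 91.3 FPKM against 986 to 1278 FPKM), and 0 had their 3 highest there. Depth implied by the tables was 2.035 to 3.39 Gb of aligned reads per library, at which 3 pairs on a transcript of 1 kb give an FPKM of 0.133 to 0.221, a floor for counting error alone. Unnamed features held 71.5% of all FPKM in bone replicate 2 and 65.0% in osteoblasts replicate 1, against 27.4 to 30.7% in the other 4, so named genes hold a smaller part of the FPKM in those 2 libraries.

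Of the 10 members, 9 lie on Chr. 3 and *S100b* lies alone on Chr. 10. By RefSeq on GRCm38.p6, the build of the tables, 7 members lie between 90511034 and 90695721 on Chr. 3, a stretch of 184688 bp, in the order *S100a1*, *S100a13*, *S100a16*, *S100a4*, *S100a6*, *S100a8*, *S100a9*. After 2824774 bp without another member follow *S100a11* and *S100a10*, between 93520496 and 93564645. *S100a1* and *S100a9* are on the minus strand of this cluster and the other 7 members on Chr. 3 on the plus strand. *S100a4* (90603770 to 90606045) lies whole inside a feature from 90560578 to 90606045 that carries the name *S100a3*, its neighbour, so the 2 genes cannot be told apart in these data and the value is given below as that of the *S100a3*-*S100a4* feature. *S100a13* (90514233 to 90524581) overlaps over 98.4% of its length an unnamed feature from 90514401 to 90524583 on the same strand. The features of *S100a6* (11300 bp) and *S100a8* (4803 bp) are longer than the genes as RefSeq gives them (1521 bp and 964 bp), and the summed FPKM of such a feature depends on how the authors' software divided reads among its transcripts.

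*S100a8* and *S100a9* were the most abundant of the members wherever they were abundant at all. *S100a8* measured 2.84 FPKM, 0 FPKM and 3247 FPKM under the label bone and 0.752, 2179 and 2327 FPKM under the label osteoblasts. *S100a9* measured 0.922, 0 and 4775 FPKM under the label bone and 0.573, 7072 and 8033 FPKM under the label osteoblasts. Both genes were thus at 2179 FPKM or more in the 3 *Hbb-bt*-high libraries and at 2.84 FPKM or less in the other 3, listed at 0 in bone replicate 2, and the values under the labels overlapped. Of the genes that reached an FPKM of 1, *S100a9* was above 99.86% in bone replicate 3 and 99.91% in osteoblasts replicates 2 and 3. With 3 values of each label spread over this range, the means are of little use: *S100a8* had 1083 ± 1874 FPKM (SD, n = 3) under the label bone and 1502 ± 1303 FPKM (SD, n = 3) under the label osteoblasts, and *S100a9* had 1592 ± 2756 and 5035 ± 4387 FPKM.

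**Figure D1:**
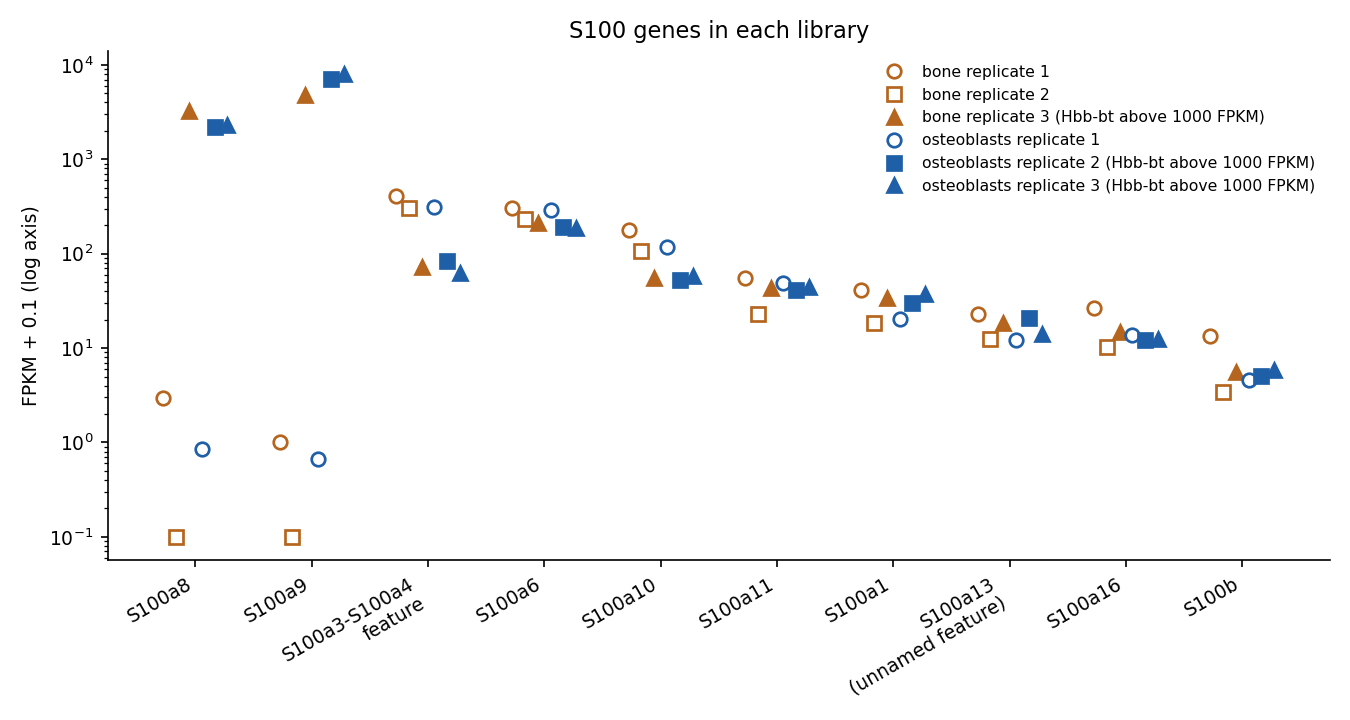
FPKM + 0.1 of each of the 10 S100 genes on a log axis, 1 point per library. Brown points are libraries labelled bone and blue points those labelled osteoblasts, the marker shape gives the replicate, and filled points are the libraries with *Hbb-bt* above 1000 FPKM. *S100a8* and *S100a9* reach 2179 to 8033 FPKM in the filled points and at most 2.84 FPKM in the open ones, while the other genes differ by much less.

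The difference between the labels was smaller than this spread. On the scale of log2(FPKM + 1), the mean of *S100a8* was higher by 3.16 under the label osteoblasts (standard error 3.36, 95% interval -4.45 to 10.76) and that of *S100a9* by 4.42 (standard error 3.81, 95% interval -4.20 to 13.03), each with a limma adjusted p = 0.999. limma draws the variance of each gene toward that of other genes. On this scale the SDs of the pair within a label were 5.96 to 7.06, against a median of 0.591 over all genes tested. The standard errors and p-values, those of the calls below included, are therefore smaller than the spread of the pair alone would give. The result rests on single libraries. Without bone replicate 3 the differences were 6.72 and 8.33 with a limma adjusted p = 0.0487 for both, and without osteoblasts replicate 1 they were 6.60 (limma adjusted p = 0.00683) and 8.49 (limma adjusted p = 0.00288). Leaving out any of the other 4 libraries gave 0.89 to 1.86 for *S100a8* and 2.22 to 2.69 for *S100a9*, with no call. Of all genes tested, limma called 0.586% higher under the label osteoblasts without bone replicate 3 and 2.16% without osteoblasts replicate 1.

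Genes of the neutrophil granules were high in the same 3 libraries as the calprotectin pair. *Ngp*, the neutrophilic granule protein, measured 2301, 2193 and 2528 FPKM in bone replicate 3 and osteoblasts replicates 2 and 3, and did not exceed 0.222 FPKM elsewhere. *Camp*, the cathelicidin, measured 2159, 2217 and 2296 FPKM there and did not exceed 1.10 FPKM elsewhere. Both were near level across the *Hbb-bt*-high libraries, as were *Mpo* (484 to 508 FPKM) and *Cebpe* (61.3 to 65.7 FPKM). Not all neutrophil genes were so level. In bone replicate 3 and osteoblasts replicates 2 and 3, *Ltf* was 0.370, 0.406 and 0.446 times *Ngp*. *Lcn2* was 0.292, 0.391 and 0.343 times *Ngp* there, and *Mmp8* measured 49.0, 67.3 and 94.1 FPKM. *S100a9* was 2.08 times *Ngp* in bone replicate 3 and 3.22 and 3.18 times *Ngp* in osteoblasts replicates 2 and 3. *S100a8* was 1.41 times *Ngp* in bone replicate 3 and 0.994 and 0.921 times *Ngp* in the other 2. The ratio of *S100a9* to *S100a8* was accordingly 1.47 in bone replicate 3, 3.25 in osteoblasts replicate 2 and 3.45 in osteoblasts replicate 3. In the coverage of the features, which the authors deposited beside the FPKM, the same ratio was 11.1, 16.2 and 13.9, and *S100a8* was 0.184, 0.195 and 0.225 times *Ngp*. Divided by the gigabases aligned, the coverage of *S100a8* was 423, 427 and 568 per Gb, so it was not highest in bone replicate 3, where its FPKM was highest. The ratio of *S100a9* to *Ngp* was 2.04, 3.17 and 3.12 by coverage, close to that by FPKM. The part of neutrophils in the *S100a8* and *S100a9* values was not tested, and in bulk RNA fewer cells of a type and less RNA per cell cannot be told apart.

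**Figure D2:**
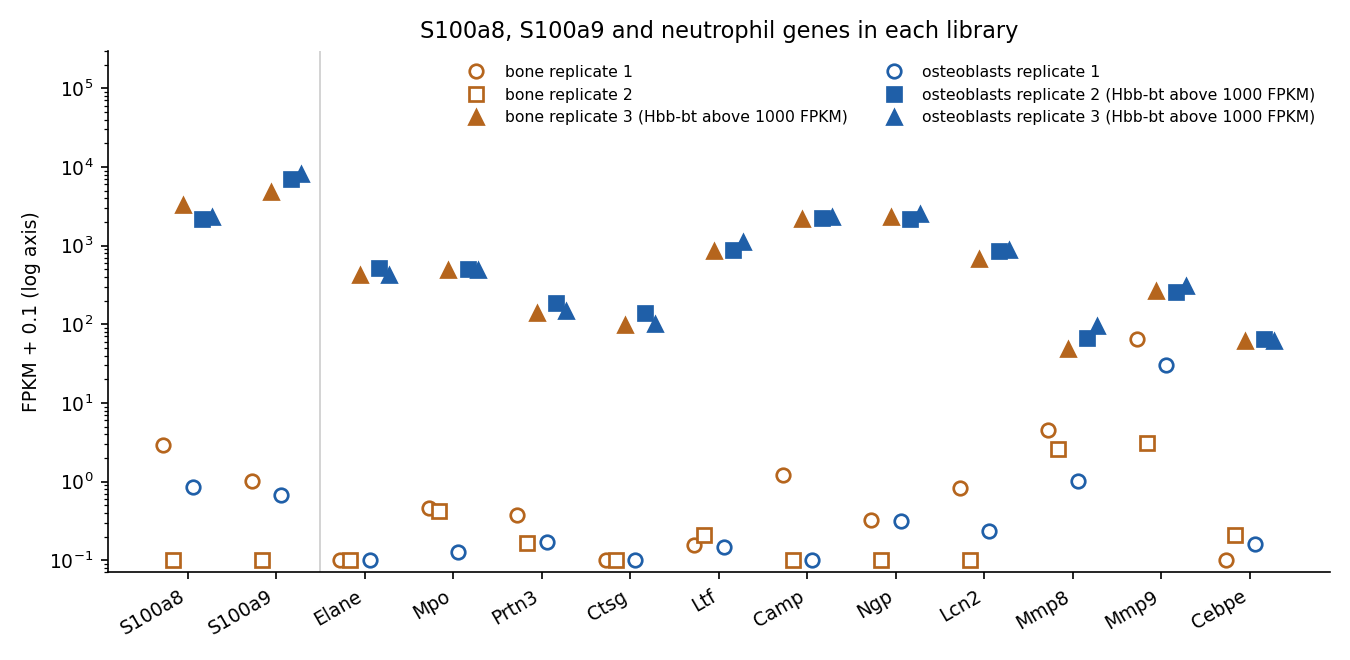
FPKM + 0.1 on a log axis of *S100a8*, *S100a9* and the 11 neutrophil genes with a row in the tables, 1 point per library, with colours and filling as for the plot of the 10 genes. Each gene has its 3 highest values in the filled points, while *Mmp9*, which other cells of bone also express, reaches 64.8 FPKM in the open ones.

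The promoters of *S100a8* and *S100a9*, the members high in the same 3 libraries, are shown beside that of *S100a6*, which lies between *S100a4* and *S100a8* and had its 3 lowest values in those libraries. Each sequence is the 250 bases before the start of the gene in RefSeq on GRCm38.p6, read 5′ to 3′ on the strand of the gene, with capitals for the motifs searched.
*S100a8* (plus strand, chr3:90668821-90669070): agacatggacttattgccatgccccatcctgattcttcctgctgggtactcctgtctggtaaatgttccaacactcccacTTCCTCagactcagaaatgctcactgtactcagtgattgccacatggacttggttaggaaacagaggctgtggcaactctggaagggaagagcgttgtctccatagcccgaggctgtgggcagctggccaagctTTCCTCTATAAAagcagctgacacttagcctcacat
*S100a9* (minus strand, chr3:90695722-90695971): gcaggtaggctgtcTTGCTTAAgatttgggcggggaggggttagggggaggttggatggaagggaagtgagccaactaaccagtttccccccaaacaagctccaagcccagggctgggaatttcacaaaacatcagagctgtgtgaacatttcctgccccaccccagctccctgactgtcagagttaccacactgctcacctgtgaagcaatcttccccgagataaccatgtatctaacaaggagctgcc
*S100a6* (plus strand, chr3:90612644-90612893): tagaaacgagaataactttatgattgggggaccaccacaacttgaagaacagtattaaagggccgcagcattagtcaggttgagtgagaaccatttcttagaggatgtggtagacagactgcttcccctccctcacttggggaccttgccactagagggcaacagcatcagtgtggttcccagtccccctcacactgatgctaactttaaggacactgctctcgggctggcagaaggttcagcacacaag
The motifs were chosen after the promoters had been read, and were searched on both strands from 250 bases before to 50 bases after the start. They were TATAAA (the TATA box), TTGCNNAA (the core bound by C/EBP factors) and GAGGAA (the core bound by PU.1), which 13.6%, 10.8% and 28.3% of the 32851 promoter windows in the table hold. *S100a8* has TATAAA at -30 from the start and the reverse complement of GAGGAA at -36 and -170, the nearer one directly beside the TATA box. *S100a9* has TTGCNNAA at -236 and TATAAA beginning at the start base itself, outside the 250 bases shown. *S100a6* holds none of the 3 motifs in this window. Of the 9 members with a promoter in the table, 3 held TATAAA (*S100a4* at -31, *S100a8* and *S100a9*), 1 held TTGCNNAA (*S100a9*) and 4 held GAGGAA (*S100a4*, *S100a8*, *S100a11* and *S100a16*). These are matches of letters, and no binding was measured.

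The product of *S100a4* binds the heavy chain of non-muscle myosin, and that of *S100a6*, calcyclin, is abundant in fibroblasts. The *S100a3*-*S100a4* feature measured 413, 305 and 71.9 FPKM under the label bone and 312, 82.6 and 62.7 FPKM under the label osteoblasts. It was high in the 3 libraries without abundant *Hbb-bt* and low in the *Hbb-bt*-high ones, with no value between 82.6 and 305 FPKM. *S100a6* measured 305, 236 and 212 FPKM under the label bone and 290, 192 and 185 FPKM under the label osteoblasts. Its 3 lowest values were in the same libraries, and its highest value was 1.65 times its lowest, against 6.58 times for the *S100a3*-*S100a4* feature. With each library scaled to the sum of its named genes these became 3.34 times and 11.2 times. Between the labels the difference on the scale of log2(FPKM + 1) was -0.82 for the feature (standard error 0.86, 95% interval -2.76 to 1.12) and -0.19 for *S100a6* (standard error 0.54, 95% interval -1.41 to 1.04), with a limma adjusted p = 0.999 for both. Markers of stromal cells (sums of 1665 to 2872 FPKM against 400 to 611 FPKM in the *Hbb-bt*-high libraries) and of macrophages were high in the same 3 libraries as the feature, and their part in its values was not tested. Of the 8 stromal genes, 5 had their 3 lowest values in the *Hbb-bt*-high libraries and 2, *Dcn* (81.1 to 88.6 FPKM against 7.81 to 15.9 FPKM) and *Lum* (16.5 to 17.4 FPKM against 1.18 to 5.55 FPKM), had their 3 highest values there. *Col3a1*, a collagen gene of stromal cells, measured 1394, 852 and 284 FPKM under the label bone and 555, 211 and 145 FPKM under the label osteoblasts.

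The FPKM ratio of *S100a6* to the *S100a3*-*S100a4* feature does not depend on the scaling of a library. It was 0.739, 0.773 and 2.95 under the label bone and 0.932, 2.33 and 2.95 under the label osteoblasts. The feature was thus the more abundant of the 2 in the libraries without abundant *Hbb-bt*, and *S100a6* was in the *Hbb-bt*-high ones. This order holds for FPKM only. By the deposited coverage, the mean depth over the bases of a feature, divided here by the gigabases aligned, *S100a6* was the higher in each library (61.9 to 108 per Gb against 1.51 to 9.99 per Gb for the feature). The feature itself kept its order of libraries by coverage, with 7.38 to 9.99 per Gb in the libraries without abundant *Hbb-bt* and 1.51 to 1.99 per Gb in the *Hbb-bt*-high ones. On the log2 scale the ratio was 0.25 ± 1.13 (SD, n = 3) for bone and 0.89 ± 0.88 (SD, n = 3) for osteoblasts, with p = 0.6 in a two-sided exact permutation test, whose smallest possible p in this design is 0.1.

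*S100a10* and *S100a11* are known as partners of annexins, proteins that bind membranes in the presence of calcium. The product of *S100a10*, which has lost the ability to bind calcium, forms a complex with annexin A2 at the plasma membrane, and that of *S100a11* binds annexin A1. *S100a10* measured 177, 106 and 55.3 FPKM under the label bone and 116, 53.0 and 57.3 FPKM under the label osteoblasts. It was within 53.0 to 57.3 FPKM in the *Hbb-bt*-high libraries and above 100 FPKM in the others. *S100a11* measured 55.2, 22.9 and 43.2 FPKM under the label bone and 49.4, 41.5 and 44.3 FPKM under the label osteoblasts. Its lowest value was that of bone replicate 2, and the other 5 libraries lay between 41.5 and 55.2 FPKM. The differences between the labels on the scale of log2(FPKM + 1) were -0.51 for *S100a10* (standard error 0.62, 95% interval -1.90 to 0.88) and 0.23 for *S100a11* (standard error 0.51, 95% interval -0.91 to 1.38), with a limma adjusted p = 0.999 for both. Without bone replicate 2 the difference of *S100a11* was -0.12.

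Of the annexins, *Anxa2* measured 254, 123 and 128 FPKM under the label bone and 147, 102 and 98.1 FPKM under the label osteoblasts. *S100a10* was below *Anxa2* in each library, with a ratio of 0.698, 0.856 and 0.433 in the libraries labelled bone and 0.791, 0.520 and 0.585 in those labelled osteoblasts. The 3 lowest of these ratios were those of the *Hbb-bt*-high libraries. *Anxa1* measured 264, 150 and 75.5 FPKM under the label bone and 116, 128 and 179 FPKM under the label osteoblasts, so it did not have the order of *Anxa2*. The ratio of *S100a11* to *Anxa1* was 0.210, 0.153 and 0.572 in the libraries labelled bone and 0.425, 0.323 and 0.247 in those labelled osteoblasts, and the highest and the lowest both stood under the label bone. Between the labels, the log2 ratio differed by -0.04 for *S100a10* to *Anxa2* (exact permutation test, two-sided, p = 1) and by 0.30 for *S100a11* to *Anxa1* (exact permutation test, two-sided, p = 0.7). Adjusted over the 3 ratios tested, each exact permutation p was 1.

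**Figure D3:**
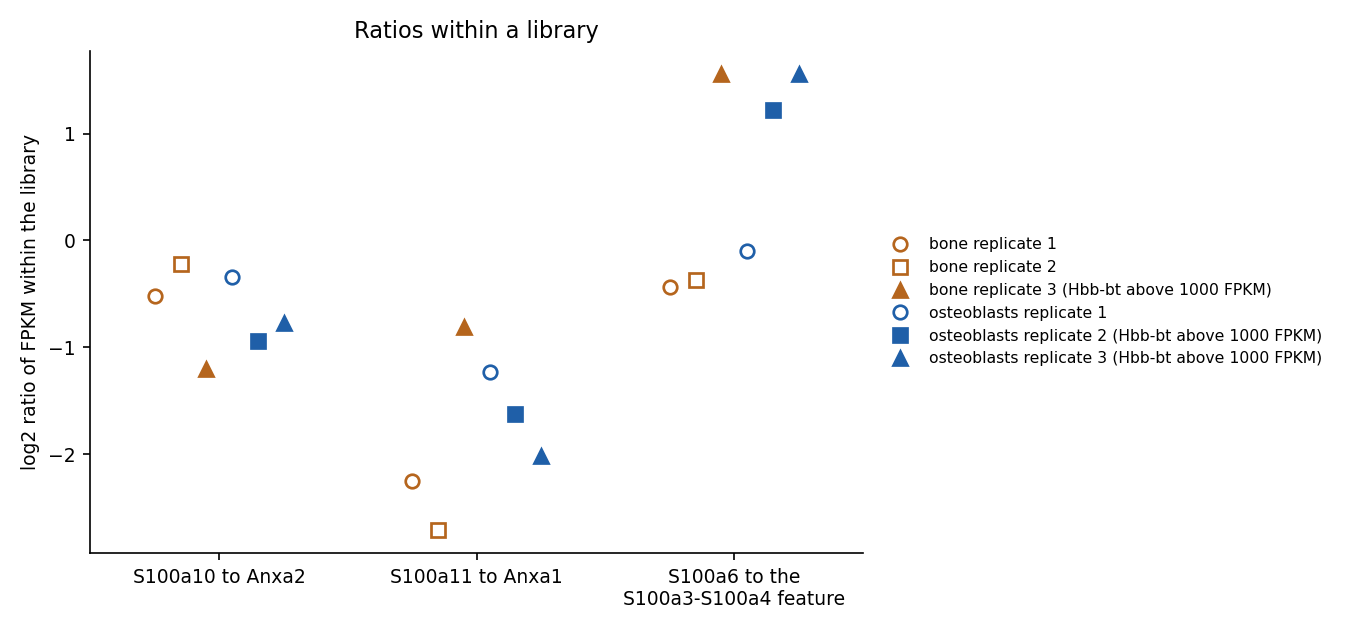
The log2 ratio of FPKM within each library for *S100a10* to *Anxa2*, *S100a11* to *Anxa1* and *S100a6* to the *S100a3*-*S100a4* feature, 1 point per library, with colours and filling as for the plot of the 10 genes. The filled points are above the open ones for *S100a6* (1.22 to 1.56 against -0.44 to -0.10), below them for *S100a10* and mixed with them for *S100a11*.

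*S100a1*, *S100a13*, *S100a16* and *S100b* were at lower levels than *S100a6*, with no member of the 4 above 40.7 FPKM. *S100a1*, known for its part in the calcium handling of heart and skeletal muscle, measured 40.7, 18.3 and 33.7 FPKM under the label bone and 20.5, 30.2 and 37.1 FPKM under the label osteoblasts. Its 2 lowest values were those of bone replicate 2 and osteoblasts replicate 1, the libraries in which unnamed features took most of the FPKM. *Acta1*, the actin of skeletal muscle, was present at 109 to 558 FPKM in the *Hbb-bt*-high libraries and did not pass 1.04 FPKM elsewhere, while *S100a1* was highest in bone replicate 1, where *Acta1* was at 1.04 FPKM. The 4 skeletal muscle genes in the tables had their 3 highest values in the *Hbb-bt*-high libraries (sums of 261 to 1050 FPKM against 0.0324 to 1.09 FPKM), and their part in the *S100a1* values was not tested. The unnamed feature over *S100a13*, whose product takes part in the release of the growth factor FGF1, measured 22.7, 12.4 and 18.3 FPKM under the label bone and 12.1, 20.8 and 14.03 FPKM under the label osteoblasts. *S100a1* and *S100a13* overlap at their starts on opposite strands in RefSeq, and the TruSeq RNA v2 kit does not mark the strand, so reads near these starts cannot be told apart. *S100a16* measured 26.4, 10.3 and 14.6 FPKM under the label bone and 13.8, 12.2 and 12.5 FPKM under the label osteoblasts. Apart from bone replicate 1, the values of *S100a16* lay between 10.3 and 14.6 FPKM.

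*S100b*, known as a gene of glia that chondrocytes and adipocytes also express, had the lowest FPKM of the members outside the calprotectin pair. This order holds for FPKM only. By coverage per Gb *S100a16* was below *S100b* in each library (2.73 to 7.02 per Gb against 3.34 to 13.3 per Gb). The *S100a3*-*S100a4* feature was also below *S100b* by coverage in the *Hbb-bt*-high libraries. *S100b* measured 13.3, 3.34 and 5.48 FPKM under the label bone and 4.44, 4.95 and 5.71 FPKM under the label osteoblasts. Bone replicate 1 stood above the other 5 libraries, which lay between 3.34 and 5.71 FPKM. The 5 chondrocyte genes in the tables had their 3 highest values in the *Hbb-bt*-high libraries and summed to 13.7 FPKM in bone replicate 1. The 6 adipocyte genes summed to 170 FPKM in bone replicate 1 and to 29.9 to 167 FPKM in the others, and their part in the *S100b* value was not tested. They did not share one order: *Adipoq* was highest in bone replicate 1 (73.4 FPKM against 9.16 to 50.8 FPKM in the others), whereas *Fabp4* was highest in osteoblasts replicate 3 (80.2 FPKM), *Plin1* in bone replicate 3 (14.6 FPKM) and *Lipe* in osteoblasts replicate 2 (17.3 FPKM). For these 4 genes the differences between the labels were -0.04 (*S100a1*), -0.17 (*S100a13*), -0.29 (*S100a16*) and -0.30 (*S100b*) on the scale of log2(FPKM + 1), with standard errors of 0.46 to 0.51 and a limma adjusted p = 0.999 for each. Without bone replicate 1 these became 0.19, 0.013, 0.057 and 0.18, so the sign of each rests on that library, and that of *S100a1* also changed without bone replicate 3 and without osteoblasts replicate 1.

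Over the members as a whole, the labels did not separate any gene. Limma called 0 of the 10 members and 0% of the 12113 genes whose mean FPKM reached 1 at an adjusted p under 0.05 (Benjamini-Hochberg), and 17 of these genes (0.14%) and none of the members had an unadjusted p under 0.05. The log2 difference was above 0 for 3 members and below 0 for 7, with a median of -0.18 against 0.12 over all genes tested. The libraries labelled bone and osteoblasts overlapped in each of the 10 members, where 0.479% of all genes were higher under the label osteoblasts without overlap and 0.438% were lower. Of the members, 2 (*S100a8* and *S100a9*) had their 3 highest values in the *Hbb-bt*-high libraries, as did 38.4% of all genes, and 3 (the *S100a3*-*S100a4* feature, *S100a6* and *S100a10*) had their 3 lowest values there, as did 16.9% of all genes. These counts depend on the scaling: when each library was scaled to the sum of its named genes, the 8 members other than *S100a8* and *S100a9* had their 3 lowest values there, as did 48.6% of all genes, and *S100a8* and *S100a9* again their 3 highest, as did 21.3%. The libraries in these last counts were parted by their *Hbb-bt* values and not by the study, so no test was run.

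**Figure D4:**
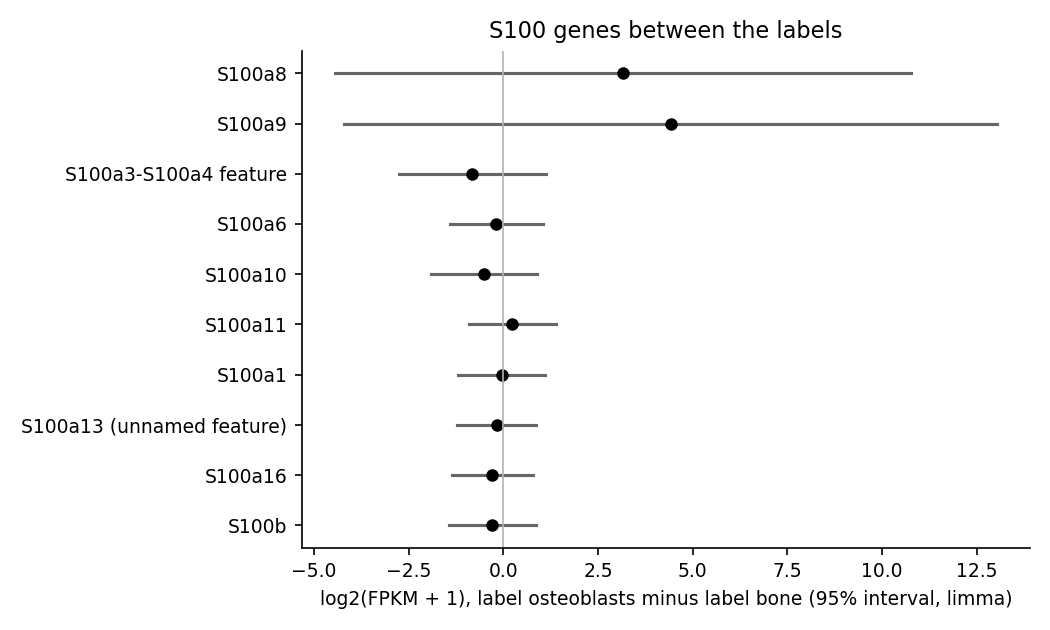
Difference between the labels for each of the 10 S100 genes on the scale of log2(FPKM + 1), osteoblasts minus bone, with points for the mean difference and lines for the 95% interval from limma. Each interval spans 0, and those of *S100a8* (-4.45 to 10.76) and *S100a9* (-4.20 to 13.03) are the widest of the 10.

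The makeup of the family within a library followed from these levels. The 10 genes summed to 1057, 714 and 8476 FPKM under the label bone and to 820, 9688 and 10780 FPKM under the label osteoblasts. *S100a8* and *S100a9* together made up 94.6 to 96.1% of this sum in the *Hbb-bt*-high libraries and at most 0.356% in the others. Without this pair, the other 8 genes summed to 419 to 455 FPKM in the *Hbb-bt*-high libraries and to 714 to 1053 FPKM in the others. Among these 8, the *S100a3*-*S100a4* feature took 38.1 to 42.7% of the sum in the libraries without abundant *Hbb-bt* and 15.0 to 18.9% in the *Hbb-bt*-high ones. *S100a6* took 29.0 to 35.5% and 43.9 to 46.7% in the same order, and *S100a10* took 12.1 to 16.8% over all 6 libraries. These shares hold for FPKM only. By coverage per Gb the *S100a3*-*S100a4* feature took 2.84 to 3.49% of the 8 genes in the libraries without abundant *Hbb-bt* and 0.774 to 1.03% in the *Hbb-bt*-high ones. *S100a6* then took 29.9 to 42.4% and 31.6 to 34.7%, which overlap, and *S100a10* 22.9 to 27.0% and 14.1 to 15.2%. The pair *S100a8* and *S100a9* took 96.2 to 97.7% of the coverage of the 10 genes in the *Hbb-bt*-high libraries and at most 0.371% in the others.

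**Figure D5:**
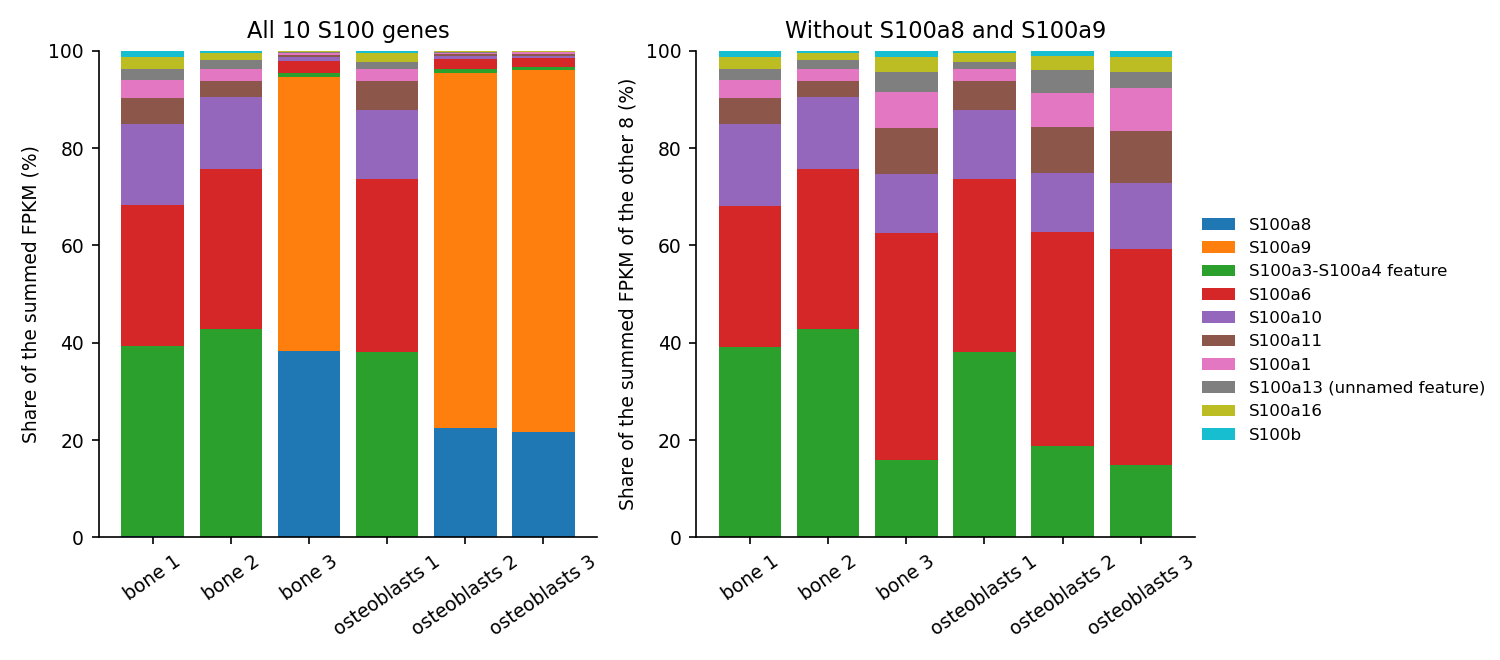
Share of each S100 gene in the summed FPKM of the 10 genes (left) and of the 8 genes other than *S100a8* and *S100a9* (right), 1 bar per library, in percent. The pair takes 94.6 to 96.1% in bone replicate 3 and osteoblasts replicates 2 and 3, and in the right panel the *S100a3*-*S100a4* feature takes 15.0 to 18.9% in the same 3 libraries and 38.1 to 42.7% in the others, which by coverage are 0.774 to 1.03% and 2.84 to 3.49%.

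For each member, the genes with the most similar pattern were taken as those whose log2(FPKM + 1), centred on its mean over the 6 libraries, had the smallest root mean square difference from it among 12112 other genes. For *S100a8* these were *Camp* (0.39) and *Nprl3* (0.50), and for *S100a9* they were *Hba-x* (0.42) and *Hbb-bt* (0.43), the values being differences on the log2 scale. *Nprl3* and *Hba-x* lie beside the adult alpha globin genes *Hba-a1* and *Hba-a2*, which had no row of their own name shared by the 6 libraries. In the *Hbb-bt*-high libraries *Nprl3* measured 5649 to 7812 FPKM and *Hba-x* 24883 to 39214 FPKM. Whether these rows also hold reads of the adult alpha globin genes was not tested. For the *S100a3*-*S100a4* feature they were *Fkbp7* (0.10) and *Aplp1* (0.12), for *S100a6* *Dpy19l3* (0.07) and *Lrrc27* (0.07), and for *S100a10* *Dap* (0.05) and *4731419I09Rik* (0.06). For *S100a11* they were *Nagpa* (0.07) and *Psmc5* (0.08), for *S100a1* *Pbxip1* (0.05) and *Sap18b* (0.06), and for *S100a13* *Rfng* (0.07) and *Ebp* (0.08). For *S100a16* they were *Gamt* (0.02) and *Tcf25* (0.06), and for *S100b* *Slco2a1* (0.10) and *Bnip3* (0.15). Among the members themselves, *S100a16* and *S100b*, on different chromosomes, were the closest pair (0.18), followed by the neighbours *S100a1* and *S100a13* (0.28). These distances describe 6 libraries that also share depth and scaling.

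The other S100 genes were near or at the floor. Of 8 further genes of the family, 7 have a row, and of these only the *S100a3* row, already described, reached an FPKM of 1 in some library. *S100a5*, *S100a14* and *S100z* were listed at 0 in each library, and *S100a2* reached 0.548 FPKM, *S100a7a* 0.424 FPKM and *S100g* 0.117 FPKM. Of the 7 fused genes of the skin, which join an S100 domain to a long repeat, such as *Flg*, none reached an FPKM of 1.

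Receptors of the released S100 proteins were measured in the same libraries. *Ager*, which encodes RAGE, was at most 0.809 FPKM in any library. *Tlr4* measured 4.24, 2.98 and 1.49 FPKM under the label bone and 6.96, 2.87 and 3.19 FPKM under the label osteoblasts. *Cd36*, a scavenger receptor, measured 140, 86.4 and 7.79 FPKM in the libraries labelled bone and 102, 14.04 and 16.8 FPKM in those labelled osteoblasts. The values of *Tlr4* in the *Hbb-bt*-high libraries overlapped those in the others, whereas the 3 lowest values of *Cd36* were in the *Hbb-bt*-high libraries. Of the 9 receptor genes that reached an FPKM of 1, 4 had their 3 lowest values there (*Cd36*, *Cd14*, *Ly96* and *Alcam*). Another 2, *Bsg* and *Cd69*, had their 3 highest values there. Of all genes whose mean FPKM reached 1, 16.9% had their 3 lowest and 38.4% their 3 highest values there. *Bsg*, which encodes basigin, a receptor named for the *S100a9* product, was the highest of the receptor genes, at 114 to 303 FPKM. Of the 8 receptor genes tested, limma called 0 higher and 0 lower, and of the 14 partner genes tested, *Anxa1* and *Anxa2* among them, also 0 and 0, each with an adjusted p of 0.999 or more. The medians of the log2 difference, osteoblasts minus bone, were -0.29 for the receptor genes and -0.02 for the partner genes. *Myh9*, the non-muscle myosin heavy chain that the *S100a4* product binds, measured 208, 97.1 and 177 FPKM under the label bone and 139, 178 and 198 FPKM under the label osteoblasts, and did not have the order of the *S100a3*-*S100a4* feature. *Cacybp*, which encodes the calcyclin-binding protein, was between 2.64 and 12.0 FPKM.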

How the data were processed

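The authors extracted total RNA from bone and osteoblasts, made TruSeq RNA v2 libraries, aligned paired-end reads of 75 bp to GRCm38 with HISAT2 2.0.5 and estimated expression with StringTie 1.3.3, versions as in the processing notes of the submitters. For each library the authors deposited FPKM, TPM and coverage over 93288 to 93290 features. FPKM as the authors deposited them use the aligned reads as a whole as their base. TPM as deposited are FPKM brought to one total, and the deposited coverage signal is the mean depth over the bases of a feature. The tables hold no read counts. Depth was inferred from the value that coverage divided by FPKM took most often.

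The labels gave the groups and the replicate numbers, and the methods give 3 mice, but no library is tied to a mouse. The p-values thus rest on the spread between these libraries, which may be technical. In limma the spread of a gene is drawn toward that of other genes. For *S100a8* and *S100a9* the limma p-values are therefore smaller than the spread of the pair alone would give. Rows of 1 name were summed. The unnamed feature over *S100a13* was added to the fit, and *S100a4* was read from the feature named *S100a3*, so the planned ratio of *S100a6* to *S100a4* was computed to that feature. Genes whose mean FPKM reached 1 were tested with limma 3.58.1 in R 4.3.3 (eBayes with a trend) on log2(FPKM + 1), a scale that understates the change of low genes, calling genes at a Benjamini-Hochberg adjusted p under 0.05. limma was tested on simulated data with independent noise, smaller than the median SD within a label here (0.591) and without a split of libraries across the labels. That test checks the code and cannot say how well the fit suits these data. Ratios were tested with exact permutation tests. Other steps used Python 3.11.15, pandas 2.3.3, numpy 2.4.6, scipy 1.17.1 and matplotlib 3.10.9. Promoter sequences are from RefSeq on GRCm38.p6. The members and lists were chosen with earlier results of these data known. The genes named are the 10 members, genes of the lists of S100 relatives, partners, receptors and cell type markers that reached an FPKM of 1 in any library, and the 2 genes most like each member. Relatives and receptors below that level were named after their values were seen. Alternatives were other pseudocounts (0.1 and 0.01), no filter or a mean FPKM of at least 5, TPM, 3 other scalings (the 75th percentile, the sum of named genes and quantile normalization), limma without a trend, a replicate block, leaving out each library and, chosen after seeing the data, coverage per Gb in place of FPKM, also for the shares of the members. The values of 1 list of markers are not reported here.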

Additional observations from a re-analysis of the deposited data

How the results depend on the processing

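Under the other pseudocounts, filters, scalings, TPM, coverage and limma without a trend, limma called 0 genes and 0 members, and the direction of the difference between the labels held for each of the 10 members. With the replicate block, limma called 46 of the 12113 genes tested higher and 3 lower under the label osteoblasts. Of these, 2 were members, *S100a8* (limma adjusted p = 0.00479) and *S100a9* (limma adjusted p = 1.33e-05). By replicate number, bone to osteoblasts, *S100a9* went from 0.922 to 0.573, from 0 to 7072 and from 4775 to 8033 FPKM. *S100a8* went from 2.84 to 0.752, from 0 to 2179 and from 3247 to 2327 FPKM. On the log2 scale the libraries numbered 2 thus carry the difference of both, and these p-values rest on variance drawn from other genes. The replicate numbers were not taken as pairs: the deviations of same-numbered libraries correlated at 0.84, -0.75 and 0.83 across genes, and not every library correlated best with its own number. When each library was left out in turn, the calls ranged from 0 to 262 genes higher, from 0 to 38 lower and from 0 to 2 members. Without bone replicate 3 there were 71 higher (0.586% of the 12113 genes tested) and 12 lower, and without osteoblasts replicate 1 there were 262 (2.16%) and 38. The members called were *S100a8* and *S100a9* in both. Members without overlap between the labels ranged from 0 to 2 (*S100a16* without bone replicate 2, *S100a6* and *S100a9* without osteoblasts replicate 1), where 6.64% and 24.2% of all genes did not overlap. With 3 pairs the exact sign-flip test of a ratio cannot give a p below 0.25. The difference of the log2 ratio of *S100a10* to *Anxa2* ranged from -0.31 to 0.18, that of *S100a11* to *Anxa1* from -0.10 to 0.86, and that of *S100a6* to the *S100a3*-*S100a4* feature from 0.30 to 1.296. Among the members, the sign changed for *S100a1* (-0.37 to 0.19), *S100a11* (-0.12 to 0.50), *S100a13* (-0.40 to 0.013), *S100a16* (-0.58 to 0.057) and *S100b* (-0.68 to 0.18). The cause was not tested. The median log2 difference of all genes moved from 0.12 to -0.03 when libraries were scaled to the sum of named genes. Depth limits what can be said of *S100a8* and *S100a9* in bone replicate 2, where both were listed at 0.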

Other observations

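The remaining marker lists gave the following summed FPKM in the 6 libraries. Without *Hbb-bt*, which parts the libraries, the other 4 erythroid genes in the tables summed to 1497 to 1639 FPKM in the libraries with *Hbb-bt* above 1000 FPKM and to 0.0540 to 0.235 FPKM in the others, and 4 of the 4 had their 3 highest values there. The 5 endothelial genes summed to 33.5 to 47.1 FPKM in the libraries with *Hbb-bt* above 1000 FPKM and to 0.273 to 5.04 FPKM in the others, again 5 of 5 with their 3 highest values there. The 5 osteocyte genes in the tables summed to 48.2 to 53.5 FPKM and to 57.1 to 135 FPKM in the same order, with 1 gene at its 3 highest and 1 at its 3 lowest values there.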
